A study of Caenorhabditis elegans with 21 samples.

Results

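Total RNA of early Caenorhabditis elegans embryos that lacked the Argonaute gene nrde-3 and the methyltransferase gene met-2 was compared with that of embryos that lacked the MBT-domain gene lin-61 and the methyltransferase gene set-25. The libraries were chosen by genotype label alone: 3 of nrde-3 met-2 and 3 of lin-61 set-25, which makes 6 of 21 libraries. The nrde-3 met-2 strain carried nrde-3(tm1116) on X and met-2(n4256) on III, and the lin-61 set-25 strain carried lin-61(tm2649) on I and set-25(n5021) on III. By these labels, the 2 groups have no allele in common and differ at all 4 loci. The reads did not check this for met-2 and set-25 (below). Embryos of both groups, of about 1 to 300 cells and not yet at the bean stage, came from worms kept at 20 °C, and both sets of libraries have the prefix 1121 in their titles. The other genotypes, given below as reference levels, were the double mutants lin-61 met-2 and nrde-3 set-25, the single mutants nrde-3 and lin-61, and the wild type N2, with 3 libraries each. N2 and lin-61 have the prefix 875 and all other genotypes 1121. A difference in level between N2 or lin-61 and the other genotypes thus cannot be told apart from a difference in prefix. The deposited values are reads per 500 bp window of build ce10, without strand or gene names, so a window is named by its chromosome and first base. Of 200547 windows, 97353 held enough reads to be tested.

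In C. elegans, methylation of lysine 9 of histone H3 marks silent chromatin, which holds many transposons and other repeats as well as genes used only in some tissues. MET-2, the relative of the mammalian SETDB1 enzyme, adds the first methyl groups to this residue, and SET-25 adds the last, which gives the trimethylated form. NRDE-3 is an Argonaute protein of somatic cells that carries small interfering RNAs into the nucleus and silences matching transcripts there. LIN-61 has MBT repeats, domains that bind methylated histone tails. The series asks, by its title, whether NRDE-3 and LIN-61 serve separate routes by which the trimethylating enzyme is brought to chromatin. The comparison below sets a double mutant of the first route with one enzyme lost beside a double mutant of the second route with the other enzyme lost.

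The libraries held 24779236, 28834312 and 24300452 reads in nrde-3 met-2 a, b and c, and 26549549, 23900832 and 24566215 reads in lin-61 set-25 a, b and c. Levels are reads per 1000000 reads of the library (CPM), with library sizes scaled by TMM factors, as mean ± SD of 3 libraries unless the libraries are given singly. Within a group, the correlation of log2 CPM between libraries was 0.941 to 0.968 for nrde-3 met-2 and 0.938 to 0.975 for lin-61 set-25. It was 0.982 to 0.988 for nrde-3 set-25, of the same prefix and similar depth, and 0.990 in each pair of the deeper N2 libraries. The labels speak of 2 independent biological replicates while the titles number 3, and a p-value here thus reflects how far libraries vary, which may be technical in part. In bulk RNA, more cells that use a window and more RNA per cell cannot be told apart.

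The lin-61 and nrde-3 labels were checked at a pair of stretches known from earlier results of these data. On I, 7249001 to 7251000 is low in the lin-61 libraries, and it held 118, 107 and 123 CPM in nrde-3 met-2 a, b and c against 14.6, 17.9 and 14.4 CPM in lin-61 set-25 a, b and c. On X, 372001 to 377000 is low in the nrde-3 libraries, and it held 52.0, 60.2 and 51.8 CPM in nrde-3 met-2 against 353, 424 and 263 CPM in lin-61 set-25. At both stretches the 2 groups stood apart in the way of their labels. A stretch on III, 13288001 to 13289000, held 1 read over the nrde-3 met-2 libraries, where background (below) alone would give 31.3 reads, and 0 reads over the lin-61 set-25 libraries. N2 held 38.7 ± 5.31 CPM there, lin-61 30.3 ± 2.97 CPM and nrde-3 24.7 ± 3.12 CPM. The nrde-3 set-25 libraries and those labelled lin-61 met-2 held 0 reads. Reads were thus absent, or nearly so, in every double mutant and present in both single mutants. This stretch therefore did not set a strain labelled met-2 apart from a strain labelled set-25. The methyltransferase labels of the 2 groups were not checked by it, and whether the groups share a lesion on III was not tested. The libraries labelled lin-61 met-2 went against their lin-61 label on I, with 132 ± 10.6 CPM there, and were low on X, with 63.6 ± 7.21 CPM, where nrde-3 held 73.2 ± 10.6 CPM and N2 531 ± 42.8 CPM. They are in no comparison here but share the estimate of the spread; fitted without them, 8044 windows were higher and 9415 lower, against the 8843 and 10271 given below.

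The nrde-3 met-2 libraries carried reads nearly everywhere in the genome. In 32328 quiet windows, which had at most 2 reads over the 6 libraries of N2 and lin-61 (prefix 875), a window held on average 0.156, 0.0985 and 0.297 CPM in nrde-3 met-2 a, b and c. The same windows held 0.0130, 0.00989 and 0.0246 CPM in lin-61 set-25 a, b and c. At least 1 read was present in 81.7, 75.9 and 97.8% of the quiet windows in nrde-3 met-2, against 21.8, 16.9 and 29.4% in lin-61 set-25. Spread over all windows, this level came to 3.33, 1.92 and 7.24% of the nrde-3 met-2 reads. In lin-61 set-25 it came to 0.312, 0.222 and 0.611%. The comparison was therefore fitted with the deposited counts and again with each library's mean of the quiet windows taken off every window. The second fit also filtered the windows and estimated the TMM factors anew, so it differs from the first in scaling too. A window "called in both fits" passed an adjusted p of 0.05 in the same direction in each.

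**Figure D1:**
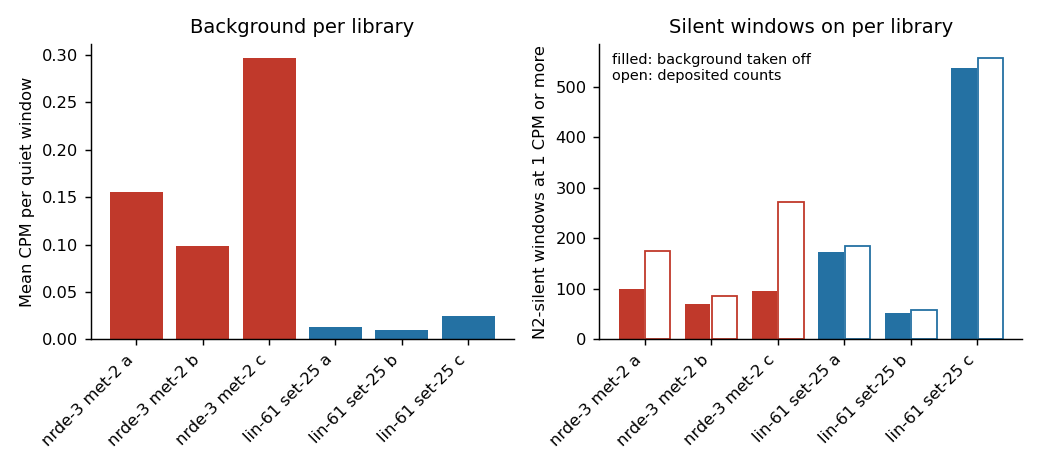
Left, mean CPM per quiet window in each of the 6 libraries. Right, number of windows with at most 2 reads in N2 that reached 1 CPM in each library, with background taken off (filled) and with deposited counts (open); nrde-3 met-2 c has the highest background at 0.297 CPM, and lin-61 set-25 c has the most silent windows on at 538.

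Large parts of the transcribed genome differed between the 2 double mutants, in both directions and by different amounts. With the deposited counts, 8843 windows (9.08% of those tested) were higher and 10271 (10.6%) were lower in nrde-3 met-2 than in lin-61 set-25. With background taken off, 10281 (11.4% of 90416) were higher and 12961 (14.3%) lower. Of the windows called with the deposited counts, 6687 higher windows (6.87%) and 9168 lower windows (9.42%) were called in both fits, and 0 windows were called in opposite directions. With the deposited counts, 907 of these higher windows rose by at least 8-fold and 418 by at least 32-fold, and 521 of the lower windows fell by at least 8-fold and 8 by at least 32-fold. The order at 8-fold turned with background taken off, when 903 of the same higher windows and 1483 of the same lower windows passed 8-fold, and 455 and 248 passed 32-fold. The sets of 907 and 521 windows described below are those of the deposited counts. The median log2 fold change was 1.15 over the higher windows and -1.51 over the lower ones, and it was 0.04 over all windows tested. All 3 libraries of one group lay above all 3 of the other in the called direction in 5506 of the 6687 higher windows and in 7368 of the 9168 lower ones. Over all windows tested, 13.1% had nrde-3 met-2 wholly above and 12.4% had it wholly below.

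The higher windows that lost their call in the second fit were mainly weak ones, and the lower windows that lost it were mainly strong ones. Where the higher group stayed below 0.5 CPM, 18 of 469 higher windows were called in both fits, against 34 of 38 lower windows. Between 0.5 and 1 CPM the numbers were 959 of 2512 higher windows and 504 of 519 lower windows. At 1 to 5 CPM they were 2282 of 2434 and 4962 of 5075, and at 5 CPM or more 3428 of 3428 and 3668 of 4639. Windows far above background moved as well: the log2 fold change went from 1.66 to 1.84 at II 13825001. It went from -0.89 to -0.70 at III 6971501. Whether background or the new scaling moved a given call was not tested. Among the 252 quiet windows that were tested, 177 were called higher and 13 lower with the deposited counts. In both fits 59 were called higher and 12 lower. Windows this quiet in N2 and lin-61 passed the filter on low counts only through libraries of the other genotypes. That filter favours windows raised in those libraries, by background or otherwise, so these numbers do not show how often quiet windows rose. The counts of calls also moved with the libraries fitted. With only the 6 libraries fitted, 2624 windows were higher and 3496 lower; without nrde-3 met-2 b, 13444 were higher and 10657 lower; without lin-61 set-25 b, 14454 were higher and 13439 lower. With no filter on low counts, 33398 were higher and 21149 lower, and with scaling by total reads alone 36.2% of the calls were higher, against 46.3% with TMM.

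**Figure D2:**
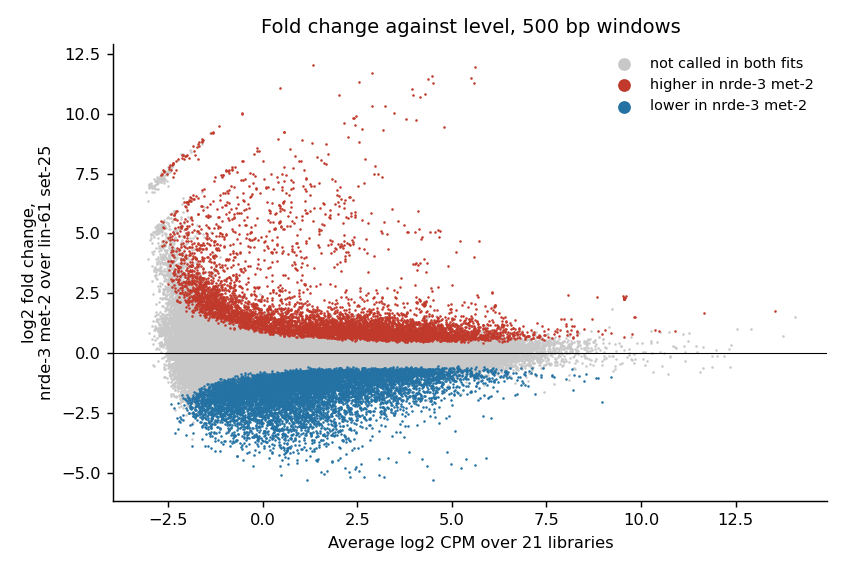
Each point is 1 of 97353 windows, with its average log2 CPM over 21 libraries on the x axis and the log2 fold change of nrde-3 met-2 over lin-61 set-25 on the y axis. Red and blue mark the 6687 higher and 9168 lower windows called in both fits; 418 red points and 8 blue points lie at 32-fold or more, with the deposited counts that the plot shows.

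Both directions were found over the whole wild-type range, and their balance varied with the level in N2 and, in the lowest class, with the fit. Of 4300 windows below 0.05 CPM in N2, 7.74% were higher and 15.7% lower in both fits, with median log2 fold changes of 4.69 and -2.40. Windows this low in N2 passed the filter on low counts only through mutant libraries. The shares and medians of this class therefore depend on that filter. Among 28968 windows at 0.05 to 0.5 CPM in N2, 4.52% were higher and 10.2% lower, at medians of 2.63 and -1.89. The shares were 4.74% higher and 11.5% lower at 0.5 to 2 CPM, and 8.42% and 9.61% at 2 to 10 CPM. Among 21378 windows at 10 CPM or more in N2, 10.5% were higher and 4.88% lower, at smaller medians of 0.84 and -0.95. In both fits, lower windows thus outnumbered higher ones below 0.05 CPM in N2, at 675 against 333, but with the deposited counts alone the order there was the reverse, at 696 lower and 854 higher. At 10 CPM or more in N2, higher windows outnumbered lower ones either way, at 2244 against 1044 in both fits and 2244 against 1672 with the deposited counts. By chromosome, the share of tested windows higher in both fits ran from 6.14% on X to 7.28% on II, and the share lower from 7.75% on II to 11.2% on V. In the autosomal arms, taken as the outer 30% on each side, 7.14% were higher and 8.88% lower. In the centres between them the shares were 6.84% and 9.47%.

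**Figure D3:**
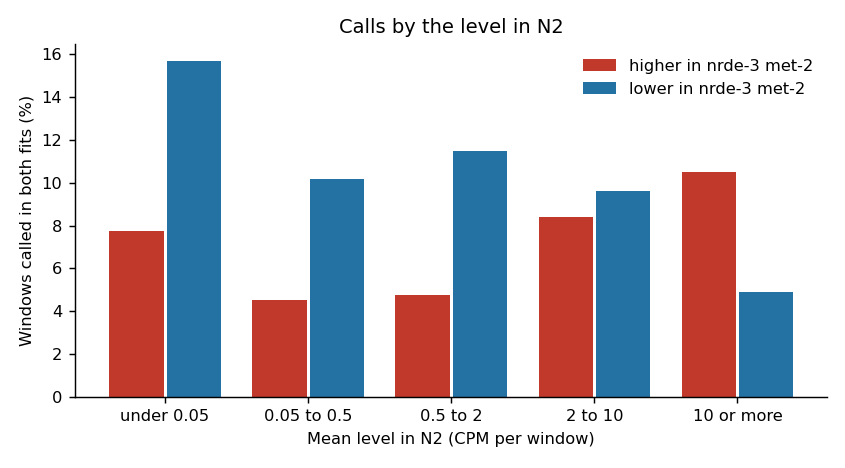
Percent of tested windows called in both fits, higher (red) and lower (blue) in nrde-3 met-2, by the mean level of the window in N2. The blue bar is the taller one in each class below 10 CPM, and the red bar, at 10.5% against 4.88%, in the class of 10 CPM or more. Windows of the lowest class were tested only where mutant libraries held enough reads.

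Windows that rose most in nrde-3 met-2 averaged below 1 CPM in lin-61 set-25, N2 and both single mutants. Named here are the 12 highest fold changes, 1 per region, among windows called in both fits whose average log2 CPM reached 1 and whose groups do not overlap. V 17308501 held 30.6, 2.72 and 14.5 CPM in nrde-3 met-2 a, b and c, and 0 reads in each lin-61 set-25 library. It was at least 463-fold higher over the floor of 3 reads for the group (adjusted p = 1.55e-05). III 5355001 held 702, 7.05 and 282 CPM in nrde-3 met-2 and 0.0314, 0.149 and 0.0658 CPM in lin-61 set-25 (log2 fold 11.96 ± 1.58, SE; adjusted p = 2.47e-05). Library b stood far below a and c at both windows, and yet above every lin-61 set-25 library.

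I 3664501 held 100.1, 1.90 and 47.2 CPM in nrde-3 met-2 and 1 read over the lin-61 set-25 libraries, a ratio of 4332 with an exact binomial 95% interval of 777 to 171165. X 11787001 held 663, 10.8 and 286 CPM in nrde-3 met-2 and 0.126, 0.149 and 0.0988 CPM in lin-61 set-25 (log2 fold 11.29 ± 1.44; adjusted p = 1.83e-05). The libraries kept the order a, c, b at I 3664501 and X 11787001 as well. II 10336001 held 59.9, 2.72 and 38.5 CPM in nrde-3 met-2 and 3 reads in lin-61 set-25, all in library a, a ratio of 987 (337 to 4789). I 13406001 held 60.5, 1.07 and 25.9 CPM in nrde-3 met-2 and 1 read in each lin-61 set-25 library, a ratio of 845 (289 to 4100). X 4028501, with 2 reads there, had a ratio of 563 (155 to 4652). X 1642501 rose by 9.54 ± 1.13 on the log2 scale.

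At 3 further windows the nrde-3 met-2 libraries lay closer together. III 2500001 held 23.9, 12.3 and 21.4 CPM in nrde-3 met-2 and 0.126, 0 and 0.0329 CPM in lin-61 set-25 (log2 fold 8.33 ± 0.95; adjusted p = 8.17e-06). IV 13361001 held 50.6, 15.4 and 47.5 CPM in nrde-3 met-2 and 0.157, 0.0747 and 0.165 CPM in lin-61 set-25 (log2 fold 8.10 ± 1.03; adjusted p = 1.83e-05). X 14909001 held 76.1, 27.8 and 37.1 CPM in nrde-3 met-2 and 0.220, 0.112 and 0.263 CPM in lin-61 set-25 (log2 fold 7.84 ± 0.92; adjusted p = 9.49e-06). III 10225001, at 15.4, 6.04 and 37.8 CPM, and X 4028501, at 17.65, 2.32 and 17.96 CPM, were highest in nrde-3 met-2 c. Over the 12 windows, library b was lowest in 12 and library a highest in 10, and the highest library held 1.94 to 99.6 times the lowest. Leaving out nrde-3 met-2 a moved the fold of 7 of the 12 by over 1.5 times, to log2 folds of 7.27 to 11.15 over the 12. Leaving out nrde-3 met-2 c, lin-61 set-25 a, b or c moved 1, 3, 2 and 2 of them, the farthest being II 10336001, which went to 13.08 without lin-61 set-25 a, where the lin-61 set-25 libraries left held 0 reads and the fitted value is no bound. The window means ran from 12.6 to 330.2 CPM in nrde-3 met-2 and from 0 to 0.199 CPM in lin-61 set-25. Among the others, those labelled lin-61 met-2 held 1.05 to 13.9 CPM at these windows, and no mean of nrde-3 set-25, nrde-3, lin-61 or N2 was above 0.748 CPM.

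**Figure D4:**
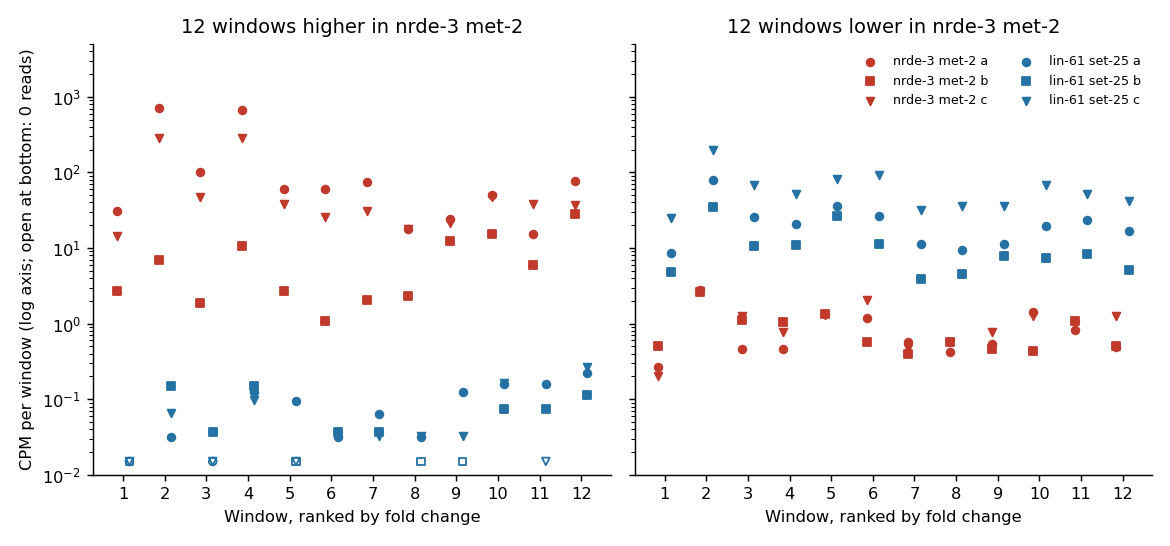
CPM per window on a log axis in each of the 6 libraries, for the 12 windows with the largest rise (left) and the 12 with the largest fall (right) in nrde-3 met-2, ranked by fold change; open symbols at the bottom are libraries with 0 reads. On the left, nrde-3 met-2 b is the lowest red symbol in all 12 windows, and on the right, lin-61 set-25 c is the highest blue symbol in all 12.

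At the other end, the windows with the largest fall in nrde-3 met-2 were also near silent in N2, but they were raised to a lower degree in several other mutants. IV 11226001 held 0.266, 0.501 and 0.203 CPM in nrde-3 met-2 a, b and c and 8.71, 4.82 and 25.2 CPM in lin-61 set-25 a, b and c (log2 fold -5.31 ± 0.55; adjusted p = 2.23e-06). X 4353501 held 2.77, 2.61 and 2.67 CPM in nrde-3 met-2 and 80.2, 34.9 and 200.3 CPM in lin-61 set-25 (log2 fold -5.29 ± 0.50; adjusted p = 5.71e-07). The groups stood far apart at both windows, with lin-61 set-25 c highest and b lowest in its group. X 4353501 averaged 26.8 ± 3.31 CPM with nrde-3 and set-25 lost, 17.3 ± 5.30 CPM under the label lin-61 met-2, 0.939 ± 0.359 CPM with nrde-3 alone lost and 4.15 ± 2.19 CPM with lin-61 alone lost, against 0.0296 ± 0.0142 CPM in N2.

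V 4435501 held 1.33, 1.32 and 1.32 CPM in nrde-3 met-2 and 36.3, 26.6 and 81.6 CPM in lin-61 set-25 (log2 fold -5.18 ± 0.50; adjusted p = 8.23e-07). IV 7753501, in a called region of 8 kb, held 1.18, 0.572 and 2.03 CPM in nrde-3 met-2 and 26.7, 11.4 and 92.7 CPM in lin-61 set-25 (log2 fold -5.10 ± 0.57; adjusted p = 6.62e-06). II 8358501 held 0.418, 0.572 and 0.575 CPM in nrde-3 met-2 and 9.34, 4.48 and 35.9 CPM in lin-61 set-25 (log2 fold -4.98 ± 0.63; adjusted p = 3.46e-05), with 0 reads in N2 and in nrde-3. Every nrde-3 met-2 library lay below every lin-61 set-25 library at these windows.

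IV 8825001, X 6280001, IV 1818501, X 6323501, I 8447001, IV 4516501 and V 12404501 made up the rest of the 12, with log2 fold changes of -5.20, -5.18, -5.04, -4.95, -4.95, -4.85 and -4.81. Of the 12 windows, 5 lay on IV, 3 on X and 0 on III. Library c of lin-61 set-25 was highest and library b lowest in 12 of 12, and without library c the fold of 11 moved by over 1.5 times, to log2 folds of -4.62 to -3.76 over the 12. Without nrde-3 met-2 c, 1 of the 12 moved, V 12404501, to -5.41. The window means ran from 0.323 to 2.68 CPM in nrde-3 met-2 and from 12.9 to 105 CPM in lin-61 set-25. They were 1.46 to 26.8 CPM with nrde-3 and set-25 lost, and 0.646 to 17.3 CPM under the label lin-61 met-2. In N2 they averaged 0 to 0.276 CPM. With background taken off, IV 11226001 kept 0.171 of its 0.323 CPM in nrde-3 met-2.

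The larger sets showed the same contrast in level. In the 907 windows at least 8-fold higher, the median level was 2.36 CPM in nrde-3 met-2 and 0.0744 CPM in lin-61 set-25. The other genotypes had medians of 0.361 (labelled lin-61 met-2), 0.0972 (nrde-3 set-25), 0.0605 (nrde-3), 0.0519 (lin-61) and 0.101 CPM (N2). In the 521 windows at least 8-fold lower, the median was 0.522 CPM in nrde-3 met-2, or 0.338 CPM with background taken off, and 5.87 CPM in lin-61 set-25. The other genotypes had medians of 0.927 (labelled lin-61 met-2), 1.41 (nrde-3 set-25), 0.195 (nrde-3), 0.622 (lin-61) and 0.0932 CPM (N2). The median of the higher set was at or below its N2 value in 4 of the other genotypes and above it under the label lin-61 met-2, while that of the lower set was above its N2 value in all 6 mutant genotypes. These medians describe windows that were chosen by the values of the 2 groups compared. The lin-61 set-25 libraries were alike in order across the lower set: library c was highest in 98.5% and library b lowest in 97.1% of the 521 windows, against 41.1% and 38.3% of all windows tested. In the higher set, nrde-3 met-2 b was lowest in 60.3%, against 39.7% of all windows tested.

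The spread between libraries of the higher group differed in shape between the 2 sets: agreement within 2 times and gaps of 10 times were both more common, as shares, in the higher set. The highest nrde-3 met-2 library held under 2 times the lowest in 301 of the 907 higher windows, 2 to 10 times in 474 and at least 10 times in 132. The highest lin-61 set-25 library held under 2 times the lowest in 13 of the 521 lower windows, 2 to 10 times in 483 and at least 10 times in 25. Without lin-61 set-25 c, 514 of the 521 were still called, but 136 of them at 8-fold or more. Without nrde-3 met-2 b, 852 of the 907 were called, 805 of them at 8-fold or more. With only the 6 libraries fitted, 814 of the 907 and 508 of the 521 were called.

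**Figure D5:**
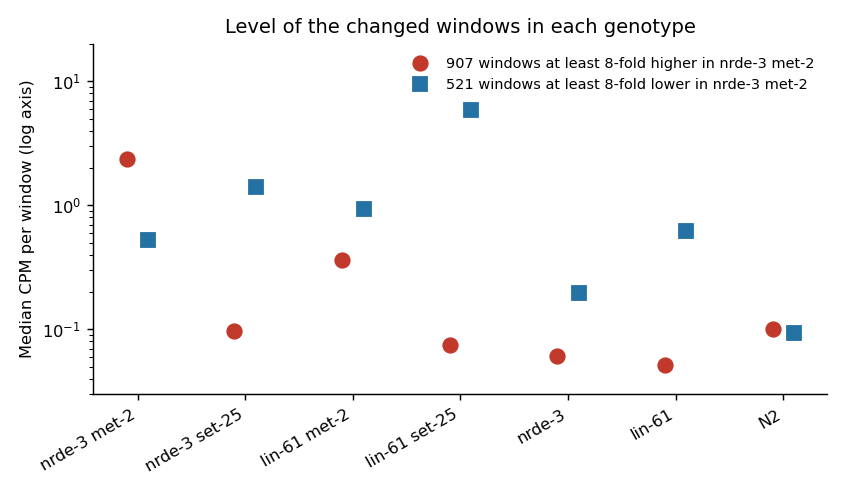
Median CPM per window on a log axis in each of 7 genotypes, for the 907 windows at least 8-fold higher (red circles) and the 521 at least 8-fold lower (blue squares) in nrde-3 met-2 than in lin-61 set-25, called in both fits. The red circle stands at 2.36 CPM in nrde-3 met-2 and at 0.361 CPM or less elsewhere; the blue square peaks at 5.87 CPM in lin-61 set-25 and is at 1.41 CPM in nrde-3 set-25.

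By their label, the nrde-3 set-25 libraries share nrde-3 with one group and set-25 with the other, which lets the comparison be split. The met-2 and set-25 labels behind this split were not checked. The log2 fold change of a window is the sum of that between nrde-3 met-2 and nrde-3 set-25 and that between nrde-3 set-25 and lin-61 set-25. The 2 steps share libraries with each other and with the whole comparison, so their values are set side by side only. Set against nrde-3 set-25, the nrde-3 met-2 libraries had 4132 windows (4.24%) that rose and 2429 (2.50%) that fell; with background taken off, 3037 (3.36%) rose and 2490 (2.75%) fell. In nrde-3 set-25 against lin-61 set-25, 596 (0.612%) rose and 1623 (1.67%) fell; with background taken off, 486 (0.538%) rose and 1256 (1.39%) fell. Both steps held fewer calls than the whole comparison.

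At the 12 windows with the largest rise, nrde-3 met-2 against nrde-3 set-25 gave log2 fold changes of 5.85 to 9.68 and was called in 12 of 12. The second step, nrde-3 set-25 against lin-61 set-25, gave 1.11 to 3.12 at these windows and was called in 0 of 12, at adjusted p of 0.331 to 0.825. III 5355001, for example, gave 9.68 ± 1.37 in the first step and 2.28 ± 2.09 in the second. These windows were chosen for high values in nrde-3 met-2 and low ones in lin-61 set-25, which favours a rise in each step. The nrde-3 set-25 level did not enter the ranking. Its means of 0.0234 to 0.748 CPM lay below the 12.6 to 330.2 CPM of nrde-3 met-2 at these windows. The second step sets them against 0 to 0.199 CPM in lin-61 set-25. Both lie near the level of 3 reads, where a difference could hardly be called. How the rise divides between the steps was not tested. At the 12 windows with the largest fall, both steps were negative. The first gave -3.32 to -1.56 and was called in 10 of 12, and the second gave -3.39 to -1.82 and was called in 11 of 12. The choice of these windows, by low values in nrde-3 met-2 and high ones in lin-61 set-25, favours a fall in each step. X 4353501 gave -3.32 ± 0.46 and -1.97 ± 0.42, and IV 8825001 gave -2.57 ± 0.50 and -2.62 ± 0.45. In the larger sets, the first step was called higher in 864 and the second in 16 of the 907 higher windows. Of the 521 lower windows, 157 were called lower in the first step and 336 in the second, 66 of them in both. Both larger sets were chosen by the same 2 groups, so these counts describe the sets and place no cause.

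Windows called with the deposited counts, 8843 higher and 10271 lower, were joined into regions of 1 direction across gaps of at most 1 window. Of these, 6687 and 9168 were called in both fits, so background enters the numbers of regions, more so for the higher ones. This gave 6335 higher regions, of which 4949 were single windows and 40 reached 5 kb, and 5199 lower regions, of which 3299 were single windows and 110 reached 5 kb. The lower regions were the longer ones, up to 45.5 kb against 11.5 kb for the higher ones.

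The longest higher regions, in contrast to the windows with the largest rise, were alike among the nrde-3 met-2 libraries. On X, 10361001 to 10372000 held a median of 3.57, 2.81 and 5.50 CPM per window in nrde-3 met-2 a, b and c, against 0.0315, 0 and 0.0329 CPM in lin-61 set-25 a, b and c. All 22 of its windows reached 1 CPM in nrde-3 met-2, against 4 in lin-61 set-25 and 3 to 5 in each of the other genotypes. On III, 13590001 to 13599000 held 14.6, 15.2 and 27.7 CPM in nrde-3 met-2 and 0.944, 1.05 and 1.22 CPM in lin-61 set-25 over its 9 kb. The N2 libraries averaged 1.78 ± 0.511 CPM there and the nrde-3 set-25 libraries 0.670 ± 0.253 CPM. Background alone would give 2.81, 1.77 and 5.34 CPM over that length in nrde-3 met-2 a, b and c.

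On I, 4540001 to 4548500 held 103, 90.9 and 141 CPM in nrde-3 met-2 and 8.27, 2.91 and 3.29 CPM in lin-61 set-25, against 27.6 ± 15.8 CPM under the label lin-61 met-2 and 5.87 ± 1.71 CPM in N2. On IV, 11607501 to 11619000 held 510, 382 and 261 CPM in nrde-3 met-2 and 139, 176 and 83.5 CPM in lin-61 set-25. This region was also high in nrde-3, in nrde-3 set-25 and under the label lin-61 met-2, all of which were low at the X stretch: the means were 360.0 ± 81.8 (nrde-3 set-25), 338 ± 61.9 (nrde-3) and 347 ± 62.2 CPM (labelled lin-61 met-2). The lin-61 single mutant averaged 59.8 ± 6.40 CPM, and N2 84.3 ± 14.1 CPM. Both have the prefix 875 and the high reference genotypes 1121, so genotype and prefix cannot be told apart in this contrast.

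In the 4 longest lower regions lin-61 set-25 c was the highest library and b the lowest of its group. On III, 6749001 to 6794500 had 87 of its 91 windows called and held 127, 96.99 and 87.1 CPM in nrde-3 met-2 a, b and c against 588, 276 and 1278 CPM in lin-61 set-25 a, b and c. The lin-61 libraries averaged 279 ± 59.9 CPM and the N2 libraries 125 ± 24.6 CPM, and that difference was not tested. On IV, 11971501 to 11994500 held 49.1, 46.7 and 60.4 CPM in nrde-3 met-2 and 247, 146 and 507 CPM in lin-61 set-25. A region on V, 6141501 to 6161000 held 40.6, 21.6 and 28.7 CPM in nrde-3 met-2 and 180, 81.0 and 381 CPM in lin-61 set-25, against 10.2 ± 4.23 CPM in N2. On I, 4335001 to 4359000 was already active in the wild type: it held 423, 390 and 272 CPM in nrde-3 met-2 and 1247, 639 and 1580 CPM in lin-61 set-25, against 929 ± 158 CPM in N2. Of the other genotypes, lin-61 averaged 1442 ± 334 CPM there, while nrde-3 at 492.5 ± 267, nrde-3 set-25 at 552 ± 141 and the libraries labelled lin-61 met-2 at 533 ± 101 CPM had means below that of N2. In all 4 regions the highest nrde-3 met-2 library lay below the lowest lin-61 set-25 library.

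Windows silent in the wild type were counted per library. Of 51676 windows with at most 2 reads over the N2 libraries, 99, 69 and 96 reached 1 CPM with background taken off in nrde-3 met-2 a, b and c, and 173, 53 and 538 in lin-61 set-25 a, b and c. The groups overlapped, and an exact permutation test of the means, 88.0 ± 16.5 windows in nrde-3 met-2 and 255 ± 253 in lin-61 set-25, gave a two-sided p of 0.4 (n = 3 each, where 0.1 is the smallest p that 3 against 3 can give). Counted with the deposited reads, the numbers were 174, 85 and 271 in nrde-3 met-2 and 185, 58 and 557 in lin-61 set-25. The quiet windows that set the background lie among these silent windows and were chosen for few reads in lin-61 as well. With background taken off, the most such windows in 1 library were 78 for nrde-3 set-25, 28 for the label lin-61 met-2, 5 for lin-61 and 1 for nrde-3.

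Few silent windows were on in all 3 libraries of a group, and 1 of them was on in both groups. A level of 1 CPM in all 3 libraries was reached by 18 silent windows in nrde-3 met-2 only, by 52 in lin-61 set-25 only and by 1, on X, in both. Here "only" means that the other group did not reach the level in all 3 libraries. The lin-61 set-25 number was limited by library b, with 53 windows on. Sets this small among 51676 windows would share little in any case, so the small overlap is no sign of separation. Each of the 18 was called higher in both fits and each of the 52 lower, which the choice of these windows favours. Of the 18, 8 lay on X and 4 on V, and of the 52, 5 lay on X and 20 on V. Of all 51676 silent windows, 20.3% lay on X and 30.5% on V, and the shares were not tested. Over the 18, the median was 3.90 CPM in nrde-3 met-2 and 0.0789 CPM in lin-61 set-25, and nrde-3 set-25 was at 0.0621 CPM. Over the 52, it was 0.436 CPM in nrde-3 met-2 and 4.10 CPM in lin-61 set-25, and nrde-3 set-25 was at 1.03 CPM. Over all windows, 200 were on at 1 CPM, with background taken off, in every nrde-3 met-2 library and under 0.3 CPM in every lin-61 set-25 library. The reverse held for 8 windows when the nrde-3 met-2 level was judged with the deposited counts. It held for 113 when background was taken off there too. The background of nrde-3 met-2 c, at 0.297 CPM per quiet window, is itself near the limit of 0.3 CPM.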

How the data were processed

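Per the labels' protocols, RNA was treated with DNase, cleared of ribosomal RNA and made into TruSeq libraries. The authors deposited raw counts of reads in 500 bp windows, on build ce10 per the submitters' processing notes. The aligner, the counting tool and the treatment of reads with several matches are not given in the sources used here. Columns were matched to genotypes by name; their letters carry no link to the numbers in the titles. A further 6 columns matched no sample and were not used.

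The main test was edgeR 4.0.16 in R 4.3.3: TMM, filterByExpr (minimum count 10), glmQLFit and glmQLFTest, 1 coefficient for each genotype, 21 libraries, 14 residual degrees of freedom. The Benjamini-Hochberg adjustment ran over the 97353 windows tested, with calls below 0.05. SE is the absolute log2 fold change over the root of its F statistic. Background was the mean count of 32328 quiet windows, taken off every window, rounded and kept at 0 or above; quiet windows were chosen from N2 and lin-61 libraries only. Ratios over 1 to 3 reads carry exact binomial (Clopper-Pearson) intervals, and 0 reads use a floor of 3 reads over the group; both cover counting error only. By rule, 12 windows, the 4 longest regions and the 3 called windows of highest level were named in each direction. The members and lists were chosen with earlier results of these data known. Alternatives were other scalings, filters and backgrounds, fewer libraries, and DESeq2 1.42.0. The fit was tested on simulated data. Python 3.11.15 (scipy 1.17.1, pandas 2.3.3, numpy 2.4.6, matplotlib 3.10.9) made the descriptions and figures. No gene was named, since the annotation used here is of another build than ce10.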

Additional observations from a re-analysis of the deposited data

How the results depend on the processing

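For nrde-3 met-2 against lin-61 set-25, dropping the filter on low counts gave 33398 higher and 21149 lower windows, and fitting only the 6 libraries gave 2624 and 3496. Leaving out 1 of the 6 libraries at a time gave 8530 to 14454 higher windows, the most without lin-61 set-25 b, and 7021 to 13439 lower windows. The other settings stayed within 1.5 times of 8843 and 10271; DESeq2 called 9171 and 11414. In no setting tried was a window called with the deposited counts called in the opposite direction. The 24 windows named for their fold change were called under every setting, and 5 of the 6 named for their level lost the call under at least 1. The mean number of silent windows on per library differed by -167 (nrde-3 met-2 minus lin-61 set-25) at 1 CPM and by 95.3 at 0.5 CPM (exact permutation test, two-sided p = 0.4 and 0.9); the cause was not tested. No paired analysis was possible because nothing links the column letters to the numbers in the titles. Depth limits windows near 0.1 CPM, about 3 reads in 1 library.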

Other observations

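Of the 6 called windows of highest level, II 13825001 was the one called under every setting tried. It held 6401, 2703 and 2480 CPM in nrde-3 met-2 a, b and c and 1377, 1451 and 829 CPM in lin-61 set-25 a, b and c (log2 fold 1.66 ± 0.37; adjusted p = 0.00295). I 15064001 held 4306, 60450 and 14105 CPM in nrde-3 met-2 and 7680, 5833 and 9919 CPM in lin-61 set-25 (log2 fold 1.75 ± 0.53; adjusted p = 0.0225). The groups overlapped there, and without nrde-3 met-2 b the adjusted p was 0.841. IV 4538501 held 897, 3592 and 1979 CPM in nrde-3 met-2 and 1176, 1169 and 1037 CPM in lin-61 set-25 (log2 fold 0.94 ± 0.32; adjusted p = 0.0435), with overlapping groups and an adjusted p of 0.592 without nrde-3 met-2 b.

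The other 3 were lower in nrde-3 met-2. III 6971501 held 604, 1011 and 1072 CPM in nrde-3 met-2 and 1908, 1714 and 1341 CPM in lin-61 set-25, and its adjusted p of 0.0364 became 0.0819 with background taken off. I 15068001 held 57.6, 511 and 246 CPM in nrde-3 met-2 and 510, 508 and 2317 CPM in lin-61 set-25, and its adjusted p of 0.0243 became 0.249 without lin-61 set-25 c. I 6844001 held 627, 449.5 and 329.95 CPM in nrde-3 met-2 and 886, 701 and 1235 CPM in lin-61 set-25, and its adjusted p of 0.00858 became 0.128 with only the 6 libraries fitted.

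A set of 10 windows on V from 17120501 to 17131500, chosen after the values were seen, had nearly the same value in each library. They are not all of the windows tested in this stretch. They held 263 to 273, 2411 to 2448 and 307 to 313 CPM in nrde-3 met-2 a, b and c, and 370 to 381, 77.1 to 82.1 and 158 to 167 CPM in lin-61 set-25 a, b and c. Their log2 folds were 2.26 to 2.30 (adjusted p = 0.0257 to 0.0288), but the groups overlapped, and 0 of the 10 were called without nrde-3 met-2 b, without lin-61 set-25 b, without lin-61 set-25 c or with only the 6 libraries. Window means were 1764 to 1784 CPM in N2 and 1715 to 1727 CPM in lin-61, both of prefix 875. In nrde-3 they were 299 to 304 CPM, in nrde-3 set-25 122 to 126 CPM and under the label lin-61 met-2 149 to 153 CPM. The 10 windows are not independent measurements.

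The share of reads on X was 8.87, 7.92 and 9.11% in nrde-3 met-2 a, b and c and 9.79, 8.92 and 10.7% in lin-61 set-25 a, b and c (exact permutation test, two-sided p = 0.2). With background taken off, the groups did not overlap, at means of 8.30 ± 0.468% in nrde-3 met-2 and 9.78 ± 0.874% in lin-61 set-25 (exact p = 0.1, the smallest that 3 against 3 can give). The autosomal arms held 42.1 ± 4.45% of reads in nrde-3 met-2 and 40.05 ± 0.681% in lin-61 set-25 (exact p = 0.8), and the centres 49.3 ± 3.88% and 50.2 ± 1.41% in the same order of groups (exact p = 0.9).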
